A study of Gallus gallus with 18 samples.

Results

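The change of uterine gene expression between initiation and growth of shell calcification is described here in hens of the low eggshell strength group, from the 3 growth and 3 initiation libraries of that group among the 18 libraries of the series. These 6 libraries were chosen by their labels alone, as all libraries labelled low strength and taken in the growth or the initiation period. The tissue was uterus throughout, from hens aged 42 weeks of the commercial brown-egg layer Hy-Line Brown. The 6 groups of 3 were low strength growth, initiation and termination and high strength growth, initiation and termination, and no treatment was labelled. The labels tie no library to a hen of its own, and the p-values given here therefore reflect the variation among libraries, part of which may be technical. For the main tests on loci that variation was taken within groups over all 18 libraries, not these 6 alone.

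In the uterus, the shell gland of the oviduct, the egg shell is mineralised. Its epithelium secretes calcium and bicarbonate, which are not stored there but supplied during shell formation, together with the proteins of the shell's organic matrix. The first mineral is deposited on the shell membranes during initiation, most of the shell is laid down during growth, and deposition stops as the pigment and cuticle are added at termination. RNA was taken from whole tissue, in which fewer cells of a type and less RNA per cell cannot be told apart. The files list 17108 loci by Ensembl identifier and 3758 loci that the authors numbered outside that annotation, and do not pair either with gene names. Loci are therefore given by identifier, no role is given for any of them, and the tissue could not be checked against its marker genes.

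The growth libraries held 16125109, 15354482 and 15964438 counts, against 14734686, 14059536 and 14781400 counts in the initiation libraries. Counts were found for 17969 to 18022 loci per growth library and for 18100 to 18217 per initiation library. Initiation replicate 3 stood apart from low strength initiation replicates 1 and 2, which were close to each other. The growth libraries correlated with each other across loci at Pearson's r of 0.970 to 0.978. Initiation replicates 1 and 2 correlated at 0.990 on the scale of log2 CPM, the counts scaled to a fixed library total. Replicate 3 correlated with them at 0.946 and 0.959, and with the 3 high strength initiation libraries at 0.942, 0.927 and 0.941. With those high strength libraries, replicate 1 correlated at 0.893, 0.907 and 0.911, and replicate 2 at 0.913, 0.923 and 0.929. Loci are not independent replicates. On the first principal component of the 6 libraries, which held 77.6% of the variance, the growth libraries scored 84.0, 84.1 and 73.0 and the initiation libraries −68.2, −67.8 and −105.1. The second component held 10.2% and set initiation replicate 3, at 52.6, apart from replicates 1 and 2, at −42.0 and −23.2. Some results are therefore also given without that library. The median standard deviation (SD) of a locus on the log2 CPM scale was 0.213 in growth and 0.270 in initiation. Over initiation replicates 1 and 2 alone it was 0.0893. The median SD tends to be lower over fewer libraries, so this value is not on a par with those over 3.

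Read quality, GC content and the yield of counts were compared between the periods. In the first mates of the read pairs, the mates used here, 94.05%, 93.61% and 93.79% of bases in the growth libraries reached quality 30, against 95.15%, 94.72% and 94.26% in the initiation libraries. The groups did not overlap, and the exact two-sided permutation test gave p = 0.1, the smallest that 3 against 3 libraries allow (0.15 after adjustment over 3 such tests). Their GC content was 50.07%, 50.24% and 49.68% in growth and 49.20%, 49.28% and 50.59% in initiation, where replicate 3 was again apart (exact permutation p = 0.6). Between 69.8 and 70.7 counts were assigned per 100 filtered read pairs in growth and between 66.6 and 69.3 in initiation (exact permutation p = 0.1). The part of these values in the results was not tested.

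Between initiation and growth, 2388 loci rose and 2353 fell in the low strength group, 14.8% and 14.6% of the 16110 loci tested (edgeR quasi-likelihood test over all 18 libraries, Benjamini-Hochberg adjusted p below 0.05). The called loci were 29.4% of those tested. A called locus changed by a median of 1.48 on the log2 scale, against 0.65 for all loci tested, and the smallest called change was 0.29. The changes of all tested loci lay between −1.92 and 2.13 from the 5th to the 95th percentile, with a median of −0.05 and a median standard error of 0.35. The 3 growth libraries lay above the 3 initiation libraries for 4890 loci (30.4% of those tested) and below them for 5124 (31.8%). Of the called loci, 4695 were among these 10014, and 46 were called although single libraries of the groups overlapped. The count of calls differed when single libraries were left out and in fits to other sets of libraries. It was 2809 without growth replicate 1 and 2889 without growth replicate 2, 3039 without initiation replicate 2, 2727 without initiation replicate 3, 7748 without high strength termination replicate 3, 7290 in a fit to these 6 libraries alone and 8099 in a fit to the 12 growth and initiation libraries. Rises and falls were near equal in number under scaling by trimmed means (TMM), where 50.4% of calls were rises, whereas scaling by total counts moved the median change of all loci to −0.19 and gave 1593 rises and 3542 falls, or 31.0% rises.

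**Figure D1:**
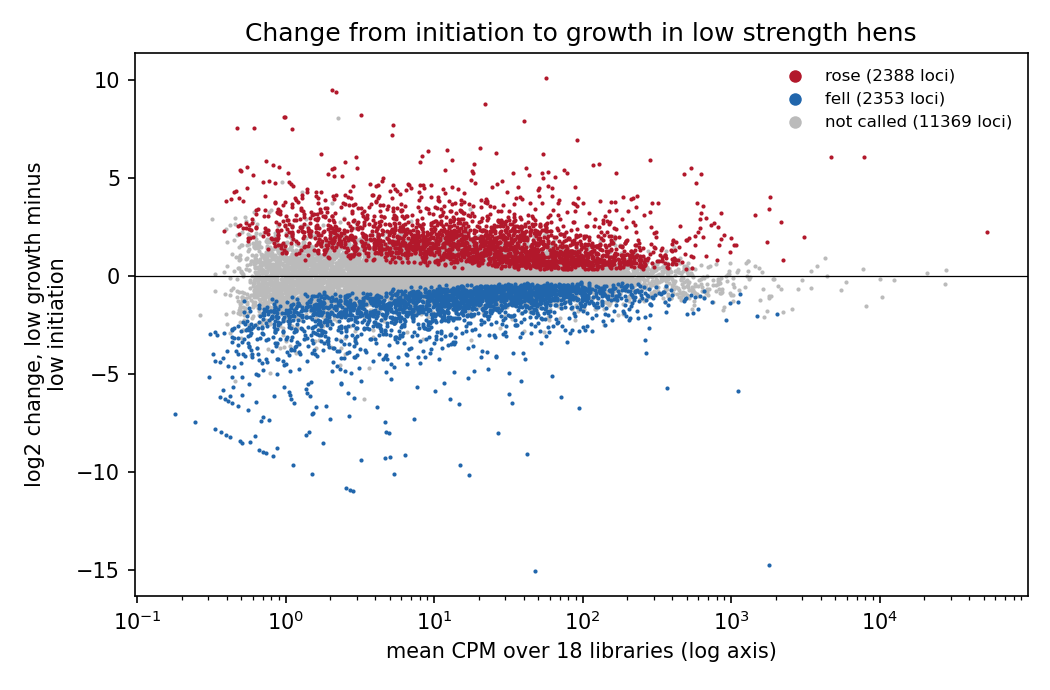
Log2 change of each tested locus, low strength growth minus initiation (vertical axis), against its mean CPM over 18 libraries (horizontal log axis), with the 2388 loci that rose in red, the 2353 that fell in blue and the loci not called in grey. Called rises and falls occur at all levels, and the largest estimated falls lie farther from 0 than the largest rises.

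Among the largest changes, falls outnumbered rises. By the estimated change, 1815 of the called loci were more than 2-fold higher in growth and 1643 more than 2-fold lower, and 846 and 628 passed 4-fold. Past 8-fold there were 326 rises and 294 falls, past 16-fold 133 and 155, and past 64-fold 24 and 69. The leans to rises past 2-fold, 4-fold and 8-fold depended on the scaling. DESeq2 with its own size factors kept them. It gave 2241 rises and 1876 falls past 2-fold, 946 and 659 past 4-fold and 340 and 304 past 8-fold. Upper-quartile scaling kept only the lean past 4-fold, and total-count scaling kept none. Total counts gave 1338 rises and 2303 falls past 2-fold, 685 and 765 past 4-fold and 291 and 329 past 8-fold, and the upper quartile gave 1626 and 1935 past 2-fold, 776 and 703 past 4-fold and 302 and 313 past 8-fold. Past 64-fold, falls outnumbered rises under total-count (73 against 20) and upper-quartile scaling (71 against 21) as well. Fitted changes of loci without counts in a group depend on a small count added by the fit. With the ratio of group means instead, and the lower mean raised to 3 counts per library where it was below that, 299 loci were more than 8-fold higher and 265 more than 8-fold lower, 41 and 54 passed 32-fold, and 13 and 26 passed 64-fold. Among all 20866 loci of the table, 105 had no counts in the 3 growth libraries and counts in each initiation library, and 67 showed the reverse. Few of these were abundant enough to test. Of the 26 tested loci without counts in growth, 25 were called, and their levels in initiation had a median of 3.00 CPM and reached 285 CPM. The 9 tested loci without counts in initiation were all called, with a median of 1.60 and a highest level of 6.12 CPM in growth. Such loci entered the test through the libraries in which they had counts, so their calls are given as a description.

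The 2 rises named here were of loci close to silent at initiation. They were the largest called among Ensembl loci without overlap and with a mean of at least 10 CPM in either group. ENSGALG00000006413 had 209, 214 and 73.9 CPM in the growth libraries, against 0.222, 0.179 and 0 CPM in the initiation libraries, the last values standing for 4, 3 and 0 counts. Every growth library was far above every initiation library, and replicate 3 was the lowest in both groups. The initiation mean was below 3 counts per library, and against that floor the growth mean of the locus was 912.5-fold higher. The counting interval of the ratio of summed counts was 566 to 2901, so that 912.5-fold is not a lower bound. The log2 change was 10.13 ± 1.68 (standard error; edgeR adjusted p = 6.44e-04), and 9.63 without initiation replicate 3 (edgeR adjusted p = 0.00491). ENSGALG00000009877 had 40.4, 59.2 and 43.1 CPM in growth and 0, 0.179 and 0.133 CPM in initiation. Its groups were as clearly apart, with 2331 counts summed over the growth libraries against 5 over the initiation libraries. Against the same floor its growth mean was 261.9-fold higher, and the counting interval of the ratio of summed counts was 202 to 1454. The fitted changes of both loci are larger than their ratios to the floor and rest on few initiation counts. The log2 change was 8.77 ± 1.18 (standard error; edgeR adjusted p = 1.32e-04). At low strength termination these loci stood at 1.96 ± 2.67 CPM and 6.90 ± 2.89 CPM (SD, n = 3).

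The 2 falls named here were chosen by the same rule, which leaves out loci low in both groups, and were of loci abundant at initiation. By the ratio of means, the 26 loci more than 64-fold lower had a median of 34.8 CPM at initiation. For the 265 more than 8-fold lower it was 7.98 CPM. ENSGALG00000015261 had no counts in any growth library, against 314, 275 and 267 CPM in the initiation libraries. It was at least 1561-fold lower in growth, taking 3 counts per library as the floor, and the call was past the threshold with and without initiation replicate 3 (edgeR adjusted p = 1.36e-04 and 5.94e-04). It entered the test through the initiation libraries, so that this call is a description. It also had no counts in the low strength termination libraries. In the high strength group it had 1 count summed over the growth libraries and 17 at initiation, all from replicate 1, and the difference of the changes between the strength groups was not called (edgeR adjusted p = 0.500). ENSGALG00000005360 had 0.303, 0.0639 and 0.759 CPM in growth, from 5, 1 and 13 counts, and 12547, 10796 and 8763 CPM in initiation. It took 1.54%, 1.29% and 0.890% of the counts of the initiation libraries, where it ranked the fifth by mean share of counts, without correction for length. The log2 change was −14.74 ± 0.89 (standard error; edgeR adjusted p = 1.48e-07). At low strength termination it was at 1.61 ± 0.879 CPM (SD, n = 3).

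**Figure D2:**
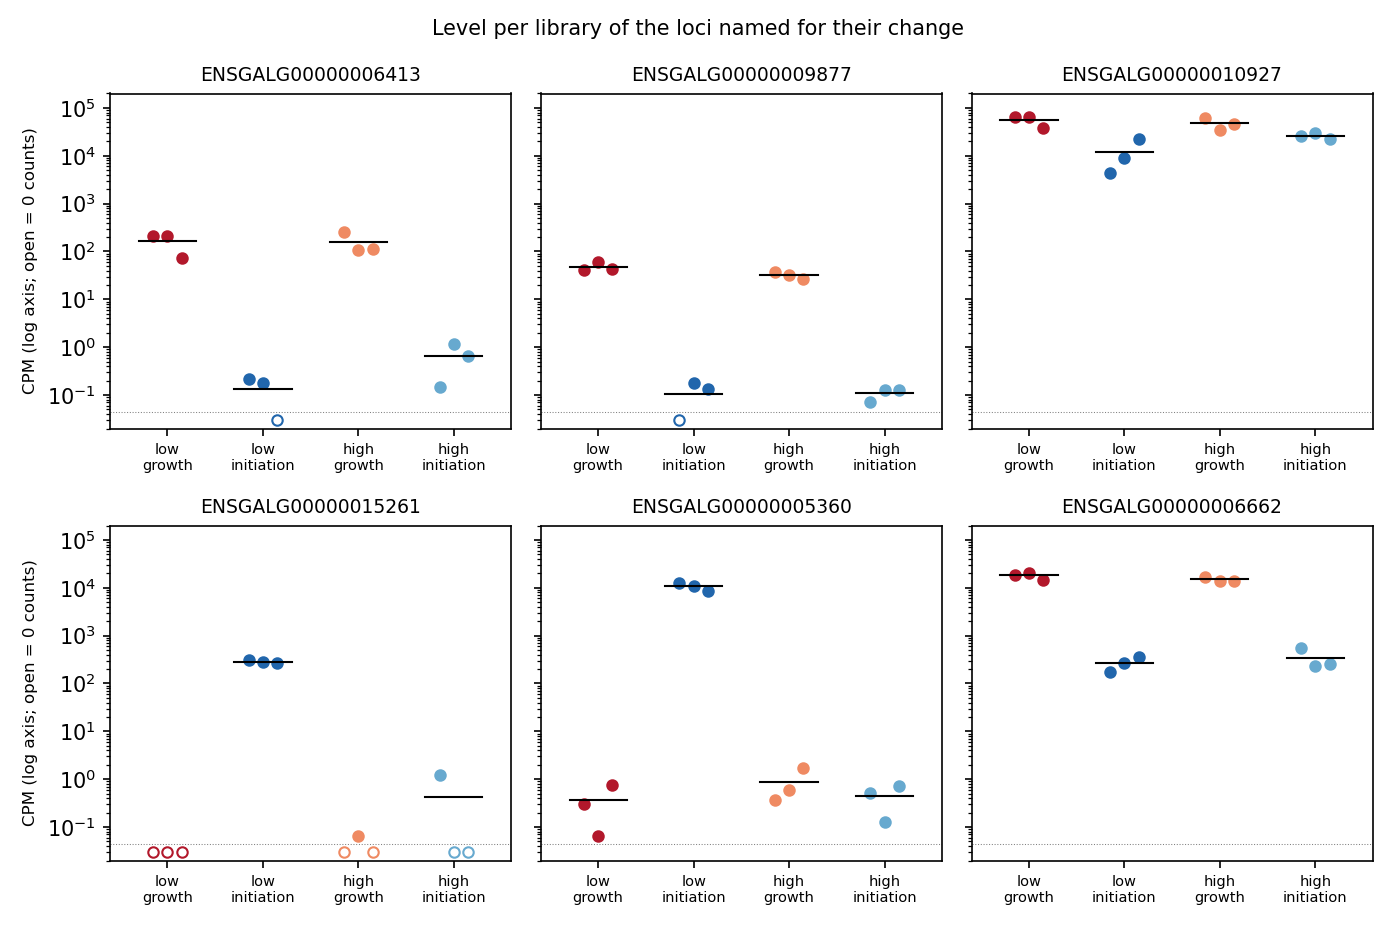
CPM per library (log axis, open symbols below the dotted line for 0 counts, bars for means of 3 libraries) of 6 loci in low growth, low initiation, high growth and high initiation. ENSGALG00000015261 and ENSGALG00000005360 are high in the 3 low initiation libraries and at most 1.25 and 1.73 CPM in any library of the other groups shown, while ENSGALG00000006413, ENSGALG00000009877 and ENSGALG00000006662 are high in the growth libraries of both strength groups.

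The share of counts taken by the most abundant loci overlapped between the periods. The 10 most abundant loci of each library took 17.3%, 18.3% and 15.5% of counts in growth, against 9.53%, 10.7% and 16.5% in initiation, where replicate 3 lay within the range of growth. For the 100 most abundant, the shares were 30.4%, 31.5% and 28.5% in growth and 23.7%, 25.2% and 33.3% in initiation, with initiation replicate 3 above all growth libraries. By mean share, 7 of the 10 and 59 of the 100 most abundant loci were the same in both periods. Of the 100 most abundant in growth, 37 rose, 5 fell and 58 were not called. Of the 100 most abundant in initiation, 3 rose, 18 fell and 79 were not called. Among all tested loci, 14.8% rose and 14.6% fell. Ranking by the level in a period favours loci that are high in it, so these calls are a description. The loci that rose took 28.2% to 33.0% of counts in growth libraries and 10.2% to 10.8% in initiation libraries, and those that fell took 5.81% to 6.60% and 15.99% to 19.0%. These shares follow from how the loci were called and are given for their size. All shares depend on the length of a transcript as well as on its copies.

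A pair of abundant loci that rose were chosen after their values were seen. ENSGALG00000010927 held the largest share of counts of any locus in growth, 6.70%, 6.62% and 4.11%, against 0.537%, 1.07% and 2.30% in initiation. Its initiation libraries differed several-fold, with replicate 3 the nearest to growth, but none reached the growth libraries. It changed by 2.23 ± 0.55 on the log2 scale (standard error; edgeR adjusted p = 0.00893), and 3.07 without initiation replicate 3 (edgeR adjusted p = 0.00177). ENSGALG00000006662 ranked the fourth in growth, with 18876, 20793 and 14574 CPM, against 173, 267 and 364 CPM in initiation. The growth libraries were all far above those of initiation, and the log2 change was 6.07 ± 0.55 (standard error; edgeR adjusted p = 4.70e-06). Neither change was called different from that of the high strength group (edgeR adjusted p = 0.510 and 0.810).

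The direction of the calls varied with abundance and with the kind of locus. Among loci with a mean of 100 to 1000 CPM over the 18 libraries, 371 rose and 190 fell, 21.8% and 11.2% of 1701, a lean that turned under total-count scaling, with 246 rises and 376 falls, and held under upper-quartile scaling, with 324 and 249. At 10 to 100 CPM the counts were 1228 and 1175 of 8369, against 721 and 1887 with total counts and 1054 and 1480 with the upper quartile. At 1 to 10 CPM they were 687 and 808 of 5036. At or below 1 CPM, 89 rose and 174 fell of 935. Of the 12727 tested Ensembl loci, 1991 rose and 1708 fell (15.6% and 13.4%), with a median log2 change of 0.01. Among the 3383 numbered loci that were tested, 397 rose and 645 fell (11.7% and 19.1%), with a median of −0.32. For all loci tested these were 14.8%, 14.6% and −0.05. The numbered loci were less abundant, with a median of 5.37 CPM against 24.4 CPM for Ensembl loci. At 10 to 100 CPM 108 of 1057 numbered loci rose and 259 fell, with a median of −0.39, and 1120 of 7312 Ensembl loci rose and 916 fell, with a median of 0.02. At 100 to 1000 CPM the split was 20 and 15 of 123 numbered loci, which turned to 17 and 27 with total counts and 19 and 20 with the upper quartile. More numbered loci fell than rose under each of the 18 settings run, the main one included. The lean was smaller without low initiation replicate 3, with 283 rises, 328 falls and a median of −0.21. For Ensembl loci the lean to rises held under 16 of the 18 settings, with 2640 rises and 2097 falls in DESeq2 with its own size factors. It turned under total-count scaling, with 1278 rises and 2629 falls, and under upper-quartile scaling, with 1737 and 2082.

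**Figure D3:**
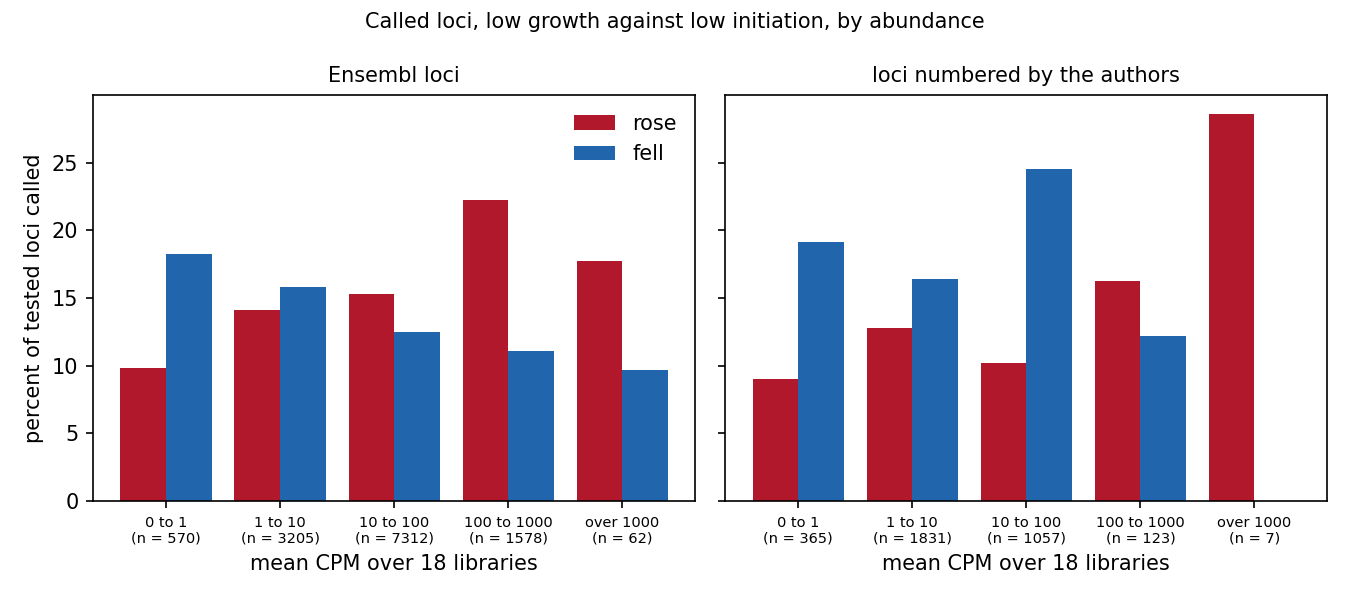
Percent of tested loci that rose (red) or fell (blue) in low strength growth against initiation, by mean CPM over 18 libraries, for Ensembl loci (left) and loci numbered by the authors (right), with the number of loci under each pair of bars. Rises outnumber falls among Ensembl loci above 10 CPM, and falls outnumber rises among numbered loci up to 100 CPM; the lean of Ensembl loci to rises turns in each of these classes under total-count scaling, and at 10 to 100 CPM, though not above, under upper-quartile scaling.

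Most called changes had the same sign in the high strength group, whether or not they were called there. Of the loci that rose, 94.6% were higher in high strength growth, against 49.0% of all tested loci. Of those that fell, 86.2% were lower, against 50.9%. The high strength libraries, which share no library with this comparison, allowed a test of whether the change differed between the strength groups. Across all loci, 307 differed (1.91% of those tested; edgeR quasi-likelihood test of the difference of the changes, adjusted p below 0.05). For 85 (0.528%) the change was more positive in the low strength group, and for 222 (1.38%) more negative, and negative differences were the more numerous under total-count (187 against 46) and upper-quartile scaling (209 against 86) too. Of the 222, 139 fell in the low strength group and were not called in the high, 38 fell in the low and rose in the high, 26 were not called in the low and rose in the high, and 19 fell in both, further in the low. Of the 85, 33 rose in the low strength group and were not called in the high, 11 rose in the low and fell in the high, 29 were not called in the low and fell in the high, 11 rose in both, further in the low, and 1 fell in both, less in the low. Single libraries changed the total: it was 171 without low growth replicate 1 and 179 without its replicate 2, 110 without low initiation replicate 1 and 115 without its replicate 2. Leaving out high growth replicate 2 gave 199 and replicate 3 gave 192. Leaving out high initiation replicate 1 gave 182, replicate 2 gave 176 and replicate 3 gave 132, and the fit without high termination replicate 3 gave 671. Without low initiation replicate 3 it was 325.

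At these loci the strength groups stood apart at initiation more than in growth. Over the 222 loci, the low minus high difference in mean log2 CPM had a median of −0.12 in growth and 2.28 at initiation, and the gap was the larger at initiation for 220. The 3 low initiation libraries each shared this, with medians of 2.44, 2.25 and 2.14 above the high initiation mean. Over the 85 loci the median difference was 0.21 in growth and −1.69 at initiation, with the larger gap at initiation for 82. For all loci tested the medians were 0.01 and −0.00, and the gap was larger at initiation for 12035 of 16110. These medians describe loci that were called from the same values.

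The loci with the strongest changes were set beside their levels in the high strength group. Among the 41 loci with a ratio of means over 32-fold higher in growth, the median over loci in low growth replicates 1, 2 and 3 was 78.2, 99.6 and 53.2 CPM and in the high growth libraries 63.7, 56.7 and 48.6 CPM. Of these 41, 40 also rose in the high strength group, where 34.4% of all tested loci were called and 18.6% rose, and 2 had a change called different between the groups. Among the 54 loci over 32-fold lower in growth, the medians were 19.2, 17.5 and 15.0 CPM in the low initiation libraries and 0.513, 0.413 and 0.513 CPM in the high initiation libraries. The high strength initiation mean was over 8-fold below that of low strength for 43 of the 54, against 1 of the 41 when the growth means were compared. Of the 54, 19 also fell in the high strength group, where 15.9% of all tested loci fell, and 21 had a change called different. Among all tested loci, 1.91% had a change called different. With few high strength counts the difference can be imprecise. For ENSGALG00000015261 it was −11.32 ± 5.88 (standard error) and not called, so a difference not called does not show an equal change. This locus had no counts in low growth, so both its difference and the standard error derived from it depend on the small count that the fit adds. The 41 and 54 loci were chosen by the low strength change, so these counts are a description.

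**Figure D4:**
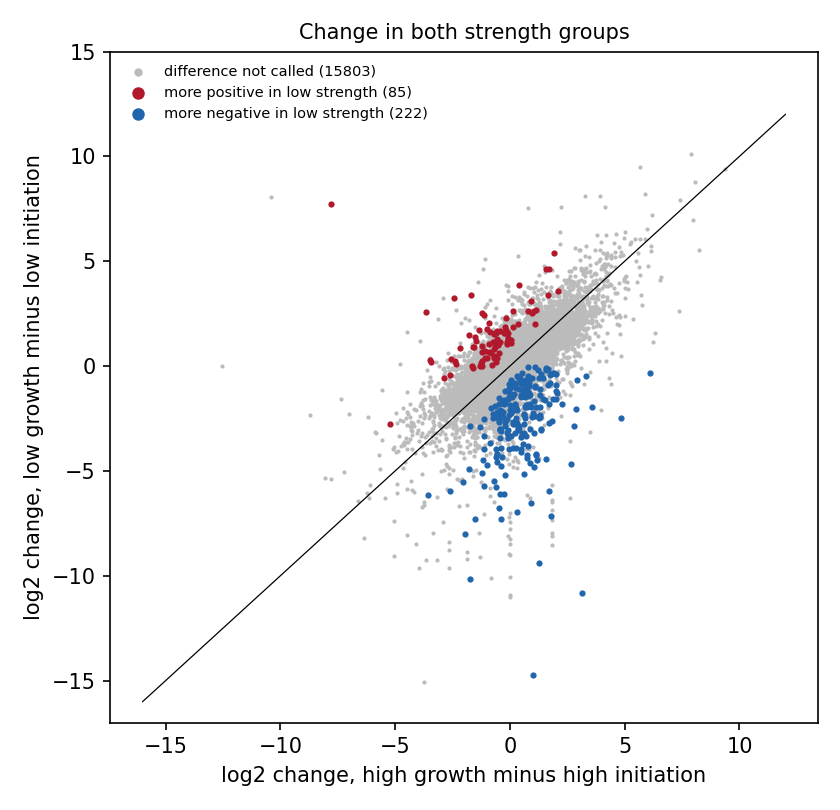
Log2 change of each tested locus from initiation to growth in the low strength group (vertical axis) against the same in the high strength group (horizontal axis), with the line of equal change. The 222 loci whose change was more negative in the low strength group (blue) and the 85 whose change was more positive (red) lie away from the line; loci not called different are grey.

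The loci with the largest differences between the strength groups were of both kinds. ENSGALG00000005360, described above, had 0.362, 0.588 and 1.73 CPM in high growth and 0.513, 0.127 and 0.705 CPM in high initiation, so that only the low initiation libraries of these groups held it in quantity. The difference of its changes, low minus high, was −15.77 ± 1.07 on the log2 scale (standard error; edgeR adjusted p = 1.61e-06). ENSGALG00000016012 had no counts in low growth, against 20.8, 17.3 and 7.86 CPM in low initiation, at least 83.7-fold lower in growth with 3 counts per library as the floor (edgeR adjusted p = 1.28e-04). In the high strength group it had 3 counts summed over the growth libraries and none at initiation, so no fold is given there. The difference had an edgeR adjusted p of 0.0196, and of 0.121 and 0.0629 without high growth replicate 1 or 3. ENSGALG00000009573 had 1 count summed over the low growth libraries, against 20.7, 21.2 and 15.2 CPM in low initiation. It was at least 104-fold lower in growth with 3 counts per library as the floor. The ratio of summed counts, 946, rests on that 1 count. Its exact 95% counting interval of 169 to 37407 leaves out the spread between libraries. In the high strength group the locus had 3 counts in growth and 1 at initiation. The difference had an edgeR adjusted p of 0.0172, and of 0.189 and 0.0602 without high growth replicate 2 or 3. ENSGALG00000016012 and ENSGALG00000009573 were above 1 CPM in the 3 low initiation libraries and in no other, so that they entered the test through the group in which they were high, and their p-values are a description. Without any 1 of those 3 libraries they were not tested.

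In the other direction, the difference came from levels that were high at high strength initiation. ENSGALG00000013568 had 6.78, 6.46 and 3.91 CPM in low growth and 3.21, 5.06 and 5.79 CPM in low initiation, groups that overlapped (log2 change 0.29 ± 0.48, edgeR adjusted p = 0.656). In the high strength group it had 6.81, 5.30 and 5.24 CPM in growth and 124, 23.2 and 46.0 CPM at initiation. The difference of the changes was 3.76 ± 0.69 (standard error; edgeR adjusted p = 0.0113). ENSGALG00000010864 had 3.21, 3.39 and 1.75 CPM in low growth and 0.443, 2.62 and 4.26 CPM in low initiation, again overlapping (log2 change 0.20 ± 0.57, edgeR adjusted p = 0.802). It had 3.26, 2.68 and 1.21 CPM in high growth and 27.4, 30.04 and 20.3 CPM in high initiation. The difference was 3.64 ± 0.81 (standard error; edgeR adjusted p = 0.0321). That call was lost in 9 of 21 alternatives, with adjusted p between 6.28e-04 and 0.0945 over all of them.

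**Figure D5:**
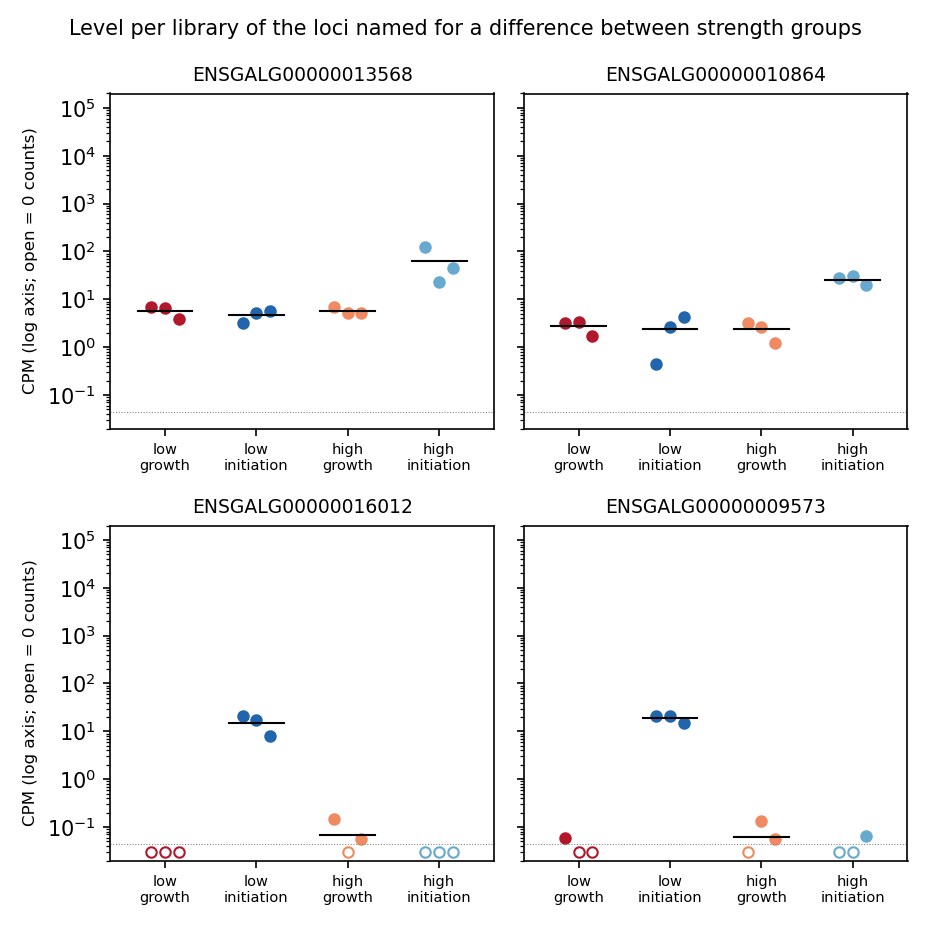
CPM per library (log axis, open symbols below the dotted line for 0 counts, bars for means of 3 libraries where above that line) of the 4 loci named for a difference of the change between strength groups. ENSGALG00000013568 and ENSGALG00000010864 are high in the 3 high initiation libraries, and ENSGALG00000016012 and ENSGALG00000009573 in the 3 low initiation libraries.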

How the data were processed

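Total RNA from hen uterus was made into TruSeq libraries, per the labels' protocols. The authors deposited 1 table of counts per locus and 1 of statistics on the reads. Bowtie2, TopHat, TopHat2 and galGal4 appear in the submitters' processing notes. How reads were counted, with which strand setting and annotation, is not given in the sources used here. Counts of paralogs, overlapping and antisense genes are therefore uncertain. The deposited counts carry the word normalized in the table's name, but all were whole and totals differed between libraries, and they were analysed as raw counts. Any scaling before deposit is unknown. In the deposited read statistics the authors gave percent values per mate for quality 30 bases and for GC, of which mate 1 was used.

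The groups come from strength and period in the labels. Loci were tested where at least 3 libraries exceeded 1 CPM, taken for this filter from library totals without TMM factors. The levels given in CPM use library totals multiplied by those factors. The test was the quasi-likelihood test of edgeR 4.0.16 (R 4.3.3) with TMM factors, fitted to 18 libraries with 1 mean per group, with Benjamini-Hochberg adjustment over all loci tested and a threshold of 0.05. The contrasts were low growth minus low initiation, high growth minus high initiation, and the former change minus the latter. A standard error is the absolute log2 change over the root of its F statistic. Log2 CPM used a prior count of 2, and the floor for a locus without counts was 3 counts per library; floors and intervals cover counting error only. Exact permutation tests used scipy 1.17.1. DESeq2 1.42.0, limma 3.58.1 (voom with library weights), other scalings and filters, a replicate block, other sets of libraries and leaving out each library were the alternatives; those on read statistics were added after seeing the data.

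Named loci are the 2 largest called rises and 2 largest falls among Ensembl identifiers that reached a mean of 10 CPM in either group and did not overlap, then the 2 largest differences each way not yet named. The RefSeq table at hand had 0 rows with an Ensembl identifier, so gene lists by symbol and cell markers were not tested. Comparisons, rules and lists were chosen with earlier results of these data known. Pairs of libraries within the 2 groups differed by more than counting noise (chi-square per degree of freedom 8.60 to 102), so none was counted as a repeat sequencing of the same library. The lowest value was for low initiation replicates 1 and 2. These values cannot tell whether libraries came from the same hen.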

Additional observations from a re-analysis of the deposited data

Results flagged for a closer look

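The change from initiation to growth differed between the strength groups for 307 loci by the test of the difference itself, low minus high. Among the loci named here, the fitted difference on the log2 scale was −15.77 for ENSGALG00000005360, −13.97 for ENSGALG00000016012, −10.63 for ENSGALG00000009573, 3.76 for ENSGALG00000013568 and 3.64 for ENSGALG00000010864. The values of ENSGALG00000016012 and ENSGALG00000009573 depend on the small count that the fit adds, since both had at most 3 counts in low growth, high growth and high initiation, and they are not bounds. Both entered the test through the low initiation libraries alone. No test for an outlying library was made within groups of 3.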

How the results depend on the processing

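The 4741 calls in the low strength group became 10436 with limma-voom and library weights, 7290 with the 6 libraries alone, 8099 with the 12 growth and initiation libraries and 7748 without high termination replicate 3; leaving out 1 of the 6 libraries gave 2727 to 3656. DESeq2 called 6053. The 307 differences between strength groups became 794 with DESeq2, 4860 with limma-voom, 763 with the 12 libraries and 671 without high termination replicate 3, and 110 to 325 when 1 of the 12 libraries was left out. The cause was not tested. No paired design was found: same-numbered libraries of the 2 periods deviated from their group means with r of 0.000334, 0.0127 and −0.00328, and the replicate block gave 5029 calls and 285 differences. Of 262 values of named loci under alternatives, 261 kept their direction and 13 lost the call. The loci were chosen by their values in these same data, so these counts are a description. The low strength changes of ENSGALG00000013568 and ENSGALG00000010864 were not called and had no call to lose. Fits without a low initiation library hold no value for ENSGALG00000016012 or ENSGALG00000009573, which were then not tested. The low strength change of ENSGALG00000010864 ranged from −0.31 (without low initiation replicate 1) to 0.86 when 1 library was left out. The difference in bases at quality 30 was −0.893 percentage points in growth minus initiation. It kept its sign when 1 library was left out, as it had to with groups that did not overlap. DESeq2 gave no adjusted p for ENSGALG00000006413. With 3 libraries a group, levels below 3 counts per library, 0.166 to 0.200 CPM in these 6, could not be told from 0.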
